A study of Mus musculus with 12 samples.

Results

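The Hox genes were all genes whose probe set on the array names a single symbol made of Hox, a cluster letter from a to d and a number. This rule found 37 genes among 19937 with a single-symbol probe set. They comprised 10 genes of the Hoxa cluster on chromosome 6, 9 of Hoxb on chromosome 11, 9 of Hoxc on chromosome 15 and 9 of Hoxd on chromosome 2. Each had 1 such probe set, so choosing the brightest set per gene made no choice among sets.

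Hox proteins are homeodomain transcription factors. Genes of the same number in different clusters are paralogs, and low-numbered genes lie at the end of a cluster that is active first and furthest forward in the embryo. In limbs, the paralogs from group 9 upwards pattern the segments from the shoulder or hip to the digits, with Hoxc9, Hoxc10 and Hoxc11 known from the hindlimb. Adult skeletal cells are known to keep a Hox profile that reflects where in the body they formed, and endothelial and blood-forming cells also use Hox genes of the middle paralog groups.

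RNA was measured on 12 arrays from cells of the long bones of female C57BL/6 mice, in 4 groups of 3. Tumor-bearing mice had received 500000 EO771 cells, a mouse mammary cancer line, through the heart, and the tumor grew in bone for about 2 weeks; tumor-free mice are called so in the labels, with no mention of a sham injection. Osteoblasts were sorted as GFP-, TR119-, CD45-, SCA1-, CD31- and CD51+ cells, and endothelial cells as GFP-, TR119- and CD45- cells positive for SCA1 and CD31. Each array carried RNA of 5000 cells after amplification. The labels do not say which limb the bones came from, what age the mice had, whether an array pooled mice, or whether osteoblast and endothelial arrays shared mice. They call the replicates biological without saying that each came from a separate mouse, so p-values measure the spread between these arrays.

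Values are log2 intensities per probe set as deposited, with array medians between 5.95 and 6.04. Levels of different probe sets are not comparable, so each gene was compared with itself across groups. A value counted as above background when it exceeded the 40th percentile of all probe sets on its array, which lay between 5.51 and 5.61. A gene was tested with limma if that held in at least 3 of the 12 arrays, and it was called at an adjusted p under 0.05 (Benjamini-Hochberg over the 14217 genes tested, two-sided). The percentile sets a probe set against others, so exceeding it does not by itself show that a gene is expressed. In these bulk samples, fewer cells of a type and less RNA per cell cannot be told apart.

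The cell type labels matched their defining genes. The osteoblast transcription factor Sp7 and the collagen gene Col1a1 had log2 fold changes of 2.60 and 3.48, osteoblasts minus endothelial cells, in tumor-free mice. The endothelial genes Cdh5 and Emcn had -5.86 and -6.79. The sort gene Pecam1, which encodes CD31, had a log2 fold change of -4.74, and Itgav, which encodes CD51, one of 1.41; with tumor, Itgav did not pass (0.93, limma adjusted p = 0.172). The median over 12 chondrocyte markers lay between 8.25 and 10.21 in the osteoblast arrays and between 5.67 and 6.62 in the endothelial arrays. Both gates left out CD45+ cells, and medians over 10 markers each still ran from 6.01 to 7.77 against 5.54 to 5.85 for macrophages and from 5.85 to 8.60 against 5.51 to 6.09 for neutrophils. For macrophages the log2 of the summed linear values ran the other way, 10.95 to 12.08 in osteoblasts and 12.63 to 13.07 in endothelial cells. For neutrophils that sum ran from 11.12 to 13.59 and from 10.31 to 12.22.

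The upstream sequences of the genes called between the cell types are given first, since those genes carry the results. RefSeq windows (GRCm38.p6) were at hand for 21 of the 37 genes, and for 2 of the 6 genes called, Hoxb4 and Hoxa10. Each line gives the 250 bases before an annotated start site, 5′ to 3′ on the gene's strand; Hoxa10 has 2 start sites.
Hoxb4, chr11:96318017-96318266, plus strand: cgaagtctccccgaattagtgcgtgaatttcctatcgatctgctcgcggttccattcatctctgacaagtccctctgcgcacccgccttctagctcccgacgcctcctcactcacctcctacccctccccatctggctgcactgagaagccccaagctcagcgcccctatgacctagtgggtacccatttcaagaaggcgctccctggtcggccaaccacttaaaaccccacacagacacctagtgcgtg
Hoxa10 site 1, chr6:52240855-52241104, minus strand: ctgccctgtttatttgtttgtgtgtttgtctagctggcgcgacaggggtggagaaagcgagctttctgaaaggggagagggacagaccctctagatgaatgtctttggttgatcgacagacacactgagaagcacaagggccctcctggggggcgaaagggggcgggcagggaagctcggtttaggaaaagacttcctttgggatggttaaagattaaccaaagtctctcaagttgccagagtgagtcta
Hoxa10 site 2, chr6:52234940-52235189, minus strand: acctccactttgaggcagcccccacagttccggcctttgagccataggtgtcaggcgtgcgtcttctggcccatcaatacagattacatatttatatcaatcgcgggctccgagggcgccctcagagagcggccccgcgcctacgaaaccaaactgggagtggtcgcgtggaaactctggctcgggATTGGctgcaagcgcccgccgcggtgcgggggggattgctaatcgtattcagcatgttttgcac
Both strands were searched for TGACAG, the core bound by Meis and Pknox proteins, TAATTA, a homeodomain core, the E-box CACGTG and the NF-Y box CCAAT; no motif contains another. The capitals in the Hoxa10 site 2 window mark the single match, a CCAAT on the opposite strand that starts 64 bases before the start site. Of 32851 mouse promoter windows of the same length, 33.8% hold a CCAAT, 15.9% a TGACAG, 6.02% a CACGTG and 4.84% a TAATTA. A missing match says only that these letters are not in these windows.

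In at least 4 of the 6 arrays of both cell types, 19 of the 37 genes did so (51.4%, against 63.8% of all 19937 genes). They were Hoxa4 to Hoxa7, Hoxa9, Hoxa10, Hoxb1 to Hoxb7, Hoxb9, Hoxc9, Hoxd4, Hoxd8, Hoxd9 and Hoxd13. Another 4 genes, Hoxa11, Hoxb13, Hoxc6 and Hoxc10, reached that number of arrays in osteoblasts alone (10.8%, against 2.62% of all genes), and Hoxd1 in endothelial cells alone (2.70%, against 2.03%). The remaining 13 did so in neither cell type (35.1%, against 31.6%), among them the hindbrain genes Hoxa2 and Hoxa3, the digit gene Hoxa13, and 6 of the 9 Hoxc genes.

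Because the filter depends on signal, 26 of the 37 genes were tested (70.3%, against 71.3% of all genes), 7 of Hoxa, 9 of Hoxb, 3 of Hoxc and 7 of Hoxd. The 11 others had values between 3.87 and 5.88, and only 10 of their 132 values exceeded the 40th percentile. At the edge of the filter, Hoxd3 entered with 3 arrays, while Hoxa13, Hoxd11 and Hoxd12 stayed out with 2. Hoxc6 and Hoxc10 exceeded the percentile in 0 of 6 endothelial arrays and entered the test through osteoblast arrays alone. A gene that enters in this way is bound to be higher in osteoblasts.

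**Figure D1:**
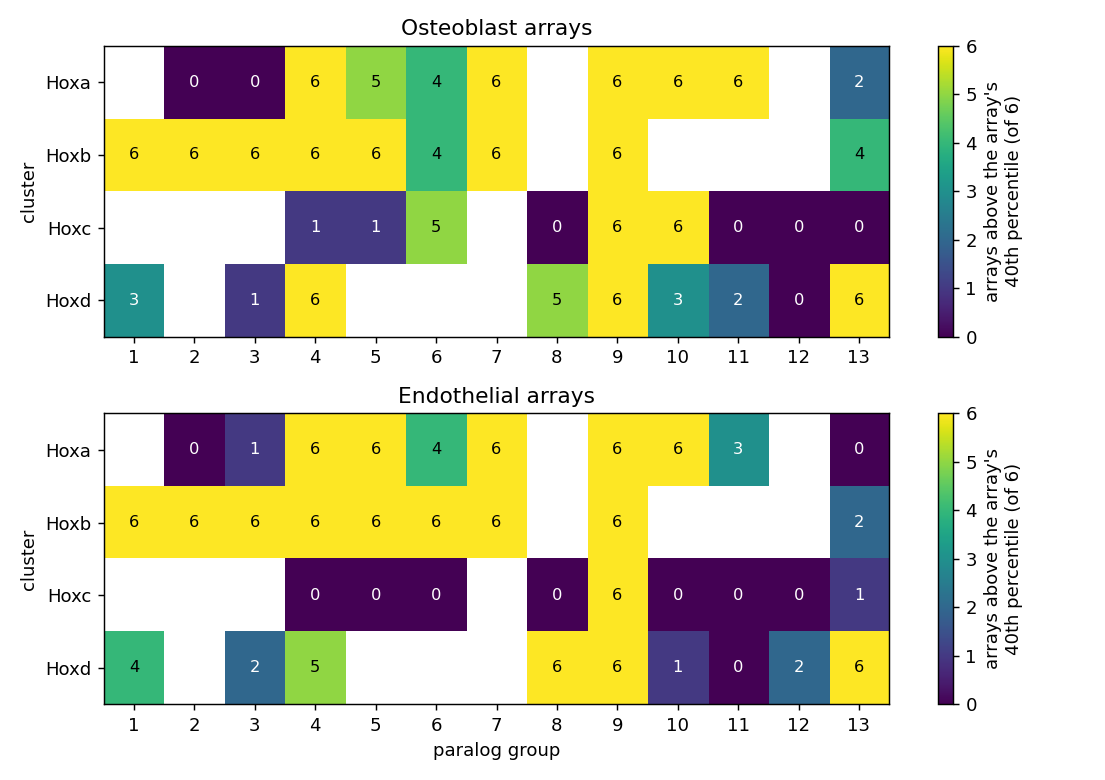
Number of arrays, of 6 per cell type, in which each Hox probe set exceeded the array's 40th percentile, by cluster (rows) and paralog group (columns); white squares hold no gene of the set. Hoxb1 to Hoxb5, Hoxb7 and Hoxb9 reached 6 of 6 in both cell types, while Hoxc6 and Hoxc10 reached 5 and 6 in osteoblasts and 0 in endothelial cells.

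Osteoblasts and endothelial cells of tumor-free mice differed in the middle of the Hoxb cluster and at single genes of Hoxa and Hoxc. Hoxb4, Hoxb5 and Hoxb6 were lower in osteoblasts, and Hoxa10 and Hoxc9 were higher. Thus 5 of 26 genes tested were called (19.2%), against 12.4% of all genes tested. The 2 higher genes stand against a background of 5.38% and the 3 lower genes against 7%.

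Hoxb4, best known for expanding blood-forming stem cells when overexpressed, read 6.41, 5.88 and 6.07 in osteoblasts of tumor-free mice and 7.32, 7.69 and 7.90 in their endothelial cells. In tumor-bearing mice it read 6.15, 6.21 and 5.95 in osteoblasts and 7.35, 7.15 and 7.77 in endothelial cells. All 6 endothelial arrays lay above all 6 osteoblast arrays. The log2 fold change was -1.52 ± 0.20 (SE, n = 3 per group; limma adjusted p = 0.000637) without tumor and -1.32 ± 0.20 (limma adjusted p = 0.0019) with tumor, which are 2.86-fold and 2.49-fold lower levels. It passed in 23 of 23 alternative settings in both conditions.

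Hoxb5, which in mouse embryos activates the VEGF receptor gene Kdr in endothelial precursors, showed the same separation. It read 6.21, 5.86 and 6.28 in osteoblasts and 6.87, 6.85 and 7.51 in endothelial cells of tumor-free mice. With tumor the values were 5.84, 5.89 and 5.77 against 6.50, 7.10 and 7.09. Both pairs of groups were apart, with log2 fold changes of -0.96 ± 0.21 (limma adjusted p = 0.0140) and -1.07 ± 0.21 (limma adjusted p = 0.00908). Without osteoblast replicate 2 of tumor-free mice, the former missed the threshold (log2 fold change -0.83, limma adjusted p = 0.0516).

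Hoxb6, a gene of the lateral plate mesoderm that gives rise to limb bone, read 5.73, 5.57 and 5.88 in osteoblasts and 6.70, 7.11 and 6.25 in endothelial cells of tumor-free mice. In tumor-bearing mice it read 5.37, 6.03 and 5.51 against 6.48, 6.15 and 6.87. The groups did not overlap in either condition, but the gap was narrow with tumor. The log2 fold change of -0.96 ± 0.26 passed without tumor (limma adjusted p = 0.0329), and that of -0.86 ± 0.26 with tumor did not (limma adjusted p = 0.0590). The former was lost when any of the 3 osteoblast arrays or endothelial replicates 1 or 2 of tumor-free mice were left out, with adjusted p from 0.0518 to 0.123 and log2 fold changes from -1.04 to -0.75. The latter passed without osteoblast replicate 2 or endothelial replicate 2 of tumor-bearing mice, or without endothelial replicates 2 or 3 of tumor-free mice, with adjusted p from 0.0375 to 0.0477.

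The other Hoxb genes differed by 0.23 or less in size in both conditions and none was called. Hoxb7, the next gene along, had log2 fold changes of -0.13 (adjusted p = 0.521 by limma) without and -0.23 (adjusted p = 0.192) with tumor. All 9 Hoxb genes had a negative log2 fold change with tumor and 7 of 9 without, where Hoxb1 (0.04) and Hoxb13 (0.22) were the exceptions. A joint probe set that names Hoxb8 with Hoxb7 was not tested and had a difference of -1.10 in both conditions.

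Blood progenitors also express several Hoxb genes, so their markers are given here. The median over 12 haematopoietic progenitor markers ran from 5.63 to 6.43 in osteoblast arrays and from 5.50 to 6.07 in endothelial arrays, and the log2 of their summed linear values from 9.47 to 11.25 and from 10.10 to 10.99. Of 10 such markers tested, 0 were higher and 2 lower in osteoblasts, Kit and Cd34, which endothelial cells also express. Among all genes tested, 7% were lower without tumor and 5.68% with tumor. Differences were positive for 8 of the 10 markers without tumor (median 0.10) and for 5 with tumor (median -0.0016). The progenitor genes Spi1 and Cd48 exceeded the 40th percentile in 0 endothelial arrays, and the other 10 did so in at least 1. Elane, a granulocyte progenitor gene, read 5.63 to 6.43 in endothelial arrays. The part of blood cells in the Hoxb values was not tested beyond these levels.

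**Figure D2:**
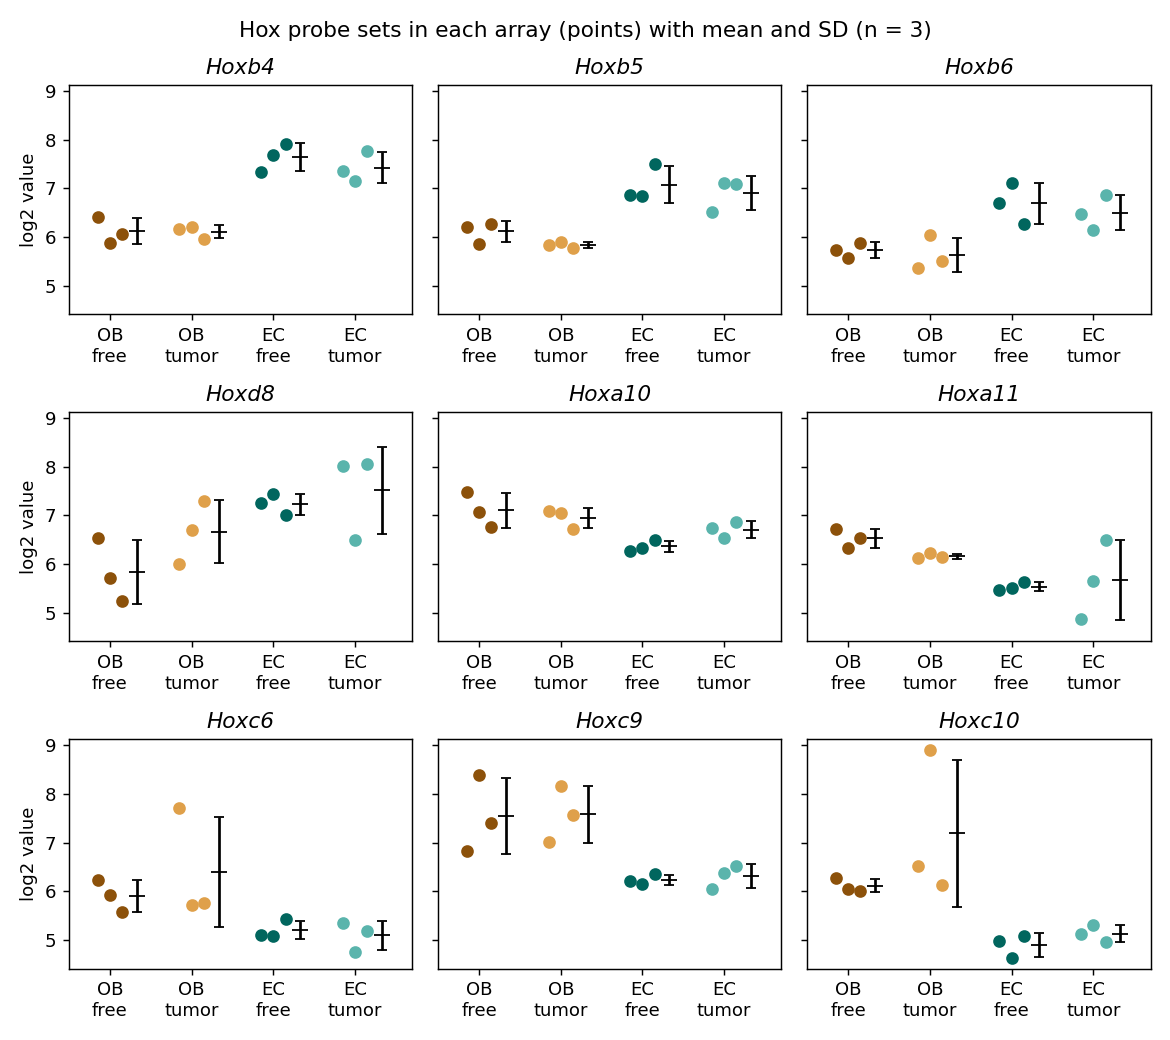
Log2 values of 9 Hox probe sets in each array (points, 3 per group), with the mean and SD of each group in black; OB, osteoblasts; EC, endothelial cells; free and tumor, mice without and with tumor. Hoxb4 was above all osteoblast arrays in every endothelial array, and single osteoblast arrays of tumor-bearing mice stood high in Hoxc10 (8.91) and Hoxc6 (7.71).

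Among genes of the upper paralog groups, Hoxa10, a regulator of osteoblast genes such as Runx2 in mouse cells, was higher in osteoblasts of tumor-free mice. It read 7.49, 7.06 and 6.76 there against 6.27, 6.34 and 6.49 in endothelial cells, with no overlap. The log2 fold change was 0.74 ± 0.18 (limma adjusted p = 0.0245), or 1.67-fold. It missed the threshold without osteoblast replicate 1 or 2 (adjusted p of 0.0674 and 0.0539) or endothelial replicate 1 or 2 (0.0884 and 0.0761) of tumor-free mice. With tumor the values were 7.09, 7.04 and 6.72 against 6.73, 6.53 and 6.86, the groups overlapped, and the log2 fold change was 0.24 (95% interval -0.17 to 0.65, limma adjusted p = 0.516). The difference between the conditions was itself tested and was not called (-0.50, limma adjusted p = 0.816).

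Hoxa9 and Hoxa11, on either side of Hoxa10 in the cluster, ran the same way without passing the test. Hoxa11, which patterns the forearm and lower leg, read 6.72, 6.33 and 6.54 in osteoblasts and 5.47, 5.51 and 5.63 in endothelial cells of tumor-free mice. Its log2 fold change of 0.99 ± 0.31 had a limma adjusted p of 0.0679. With tumor it read 6.12, 6.22 and 6.14 against 4.86, 5.66 and 6.50, a spread within endothelial arrays that was wider than in any other group for this gene. Without endothelial replicate 1 or 3 of tumor-bearing mice the tumor-free difference passed (adjusted p of 0.00937 and 0.00786), and without replicate 3 the tumor-bearing difference did too (log2 fold change 0.90, adjusted p = 0.0290). Hoxa9, which acts in blood and endothelial cells, had a log2 fold change of 0.39 without tumor (limma adjusted p = 0.110) and 0.22 with tumor (0.407).

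The lower Hoxa genes leaned the other way. Hoxa5, which patterns the upper spine and shoulder blade, read 6.70, 6.64 and 6.20 in osteoblasts against 7.10, 6.62 and 7.06 in endothelial cells of tumor-free mice. With tumor it read 6.25, 6.09 and 5.42 against 6.72, 6.40 and 6.59. The groups were apart only with tumor, where the log2 fold change of -0.65 did not pass (limma adjusted p = 0.112). Over paralog groups 9 to 13, all 4 Hoxa genes had positive log2 fold changes without tumor (median 0.56) and 3 of 4 with tumor (median 0.23), and over groups 4 to 8, 3 of 4 and 4 of 4 had negative ones.

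In the Hoxc cluster 3 genes were bright enough to test, and the direction of Hoxc6 and Hoxc10 was bound by the filter. Hoxc9, a gene of the trunk and hindlimb, read 6.83, 8.38 and 7.41 in osteoblasts and 6.22, 6.14 and 6.35 in endothelial cells of tumor-free mice. With tumor it read 7.00, 8.17 and 7.57 against 6.04, 6.38 and 6.52. The groups did not overlap in either condition, while osteoblasts varied more than endothelial cells. The log2 fold changes were 1.31 ± 0.37 (limma adjusted p = 0.0442) without tumor and 1.27 ± 0.37 (limma adjusted p = 0.0563) with tumor.

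The Hoxc9 call was close to the threshold. It passed in 11 of 23 alternatives without tumor and in 6 of 23 with tumor. The tumor-free call was lost without osteoblast replicate 2 or 3 or any endothelial array of tumor-free mice, or without osteoblast replicate 3 or any endothelial array of tumor-bearing mice, with adjusted p from 0.0565 to 0.124 and the lowest log2 fold change, 0.89, without osteoblast replicate 2. With tumor it passed without osteoblast replicate 1 of tumor-bearing mice (0.0371) or osteoblast replicates 1 or 2 of tumor-free mice (0.0302 and 0.0162). Replicate 2 of both osteoblast groups had the highest Hoxc9 and also the highest chondrocyte marker median of its group, 10.21 without and 10.09 with tumor. The other arrays ran in the opposite order. Replicates 1 and 3 had medians of 8.52 and 8.32 without tumor and 9.76 and 8.25 with tumor, while Hoxc9 was lower in replicate 1. The part of cartilage cells in the Hoxc9 values was not tested.

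Hoxc10, a hindlimb gene, read 6.27, 6.06 and 6.01 in osteoblasts and 4.97, 4.62 and 5.09 in endothelial cells of tumor-free mice. With tumor it read 6.52, 8.91 and 6.13 in osteoblasts against 5.12, 5.30 and 4.96. The cell types were apart in both conditions, and replicate 2 of the osteoblasts of tumor-bearing mice stood far above the other arrays of its group. The log2 fold change was 2.06 ± 0.56 with tumor (limma adjusted p = 0.0401) and 1.22 ± 0.56 without (limma adjusted p = 0.220). Without that one array, the values were 1.20 (adjusted p = 0.00327) with tumor and 1.22 (adjusted p = 0.00109) without, so both conditions passed and the difference between them was -0.02 (adjusted p = 0.994) in place of 0.84 (adjusted p = 0.890). That array was picked out by its value, and the direction of Hoxc10 was bound by the filter. Leaving out any osteoblast or endothelial array of tumor-free mice, or any endothelial array of tumor-bearing mice, ended the tumor-bearing call (adjusted p from 0.0519 to 0.114).

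Hoxc6, a gene of the upper trunk and forelimb level, read 6.23, 5.92 and 5.56 in osteoblasts and 5.11, 5.09 and 5.42 in endothelial cells of tumor-free mice. With tumor it read 7.71, 5.72 and 5.76 against 5.34, 4.75 and 5.18. No endothelial array exceeded an osteoblast array of its condition, and the high array here was replicate 1, a different one from that of Hoxc10. The log2 fold changes of 0.70 and 1.30 did not pass (limma adjusted p of 0.413 and 0.104); without the high array the latter was 0.65 (adjusted p = 0.133). The untested Hoxc8 lay below background in all 12 arrays, with means of 5.18 and 4.76 in osteoblasts and endothelial cells of tumor-free mice.

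In the Hoxd cluster no gene was called between the cell types. Hoxd8, known from lymphatic endothelium, came closest, with 6.54, 5.72 and 5.23 in osteoblasts and 7.25, 7.44 and 7.01 in endothelial cells of tumor-free mice. With tumor it read 6.00, 6.70 and 7.29 against 8.01, 6.49 and 8.06. The groups were apart without tumor and overlapped with it. The log2 fold changes were -1.40 ± 0.47 (limma adjusted p = 0.0889) and -0.86 ± 0.47 (limma adjusted p = 0.333); without endothelial replicate 2 of tumor-bearing mice the former passed (adjusted p = 0.0370). Hoxd10, above the 40th percentile in 4 of 12 arrays, had a log2 fold change of 0.37 with tumor (limma adjusted p = 0.487). It passed without osteoblast replicate 2 of tumor-bearing mice (0.73, adjusted p = 0.0421). Hoxd13, the digit gene, was the steadiest Hox probe set, with all 12 values within 0.30.

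In tumor-bearing mice, then, 3 of 26 genes tested were called (11.5%), against 10.6% of all genes, a share near the background. Hoxb4 and Hoxb5 were the 2 lower genes (background 5.68%). The 1 higher gene (background 4.89%) was Hoxc10, whose direction was bound by its entry through osteoblast arrays. Without Hoxc6 and Hoxc10, a count added after the values were seen, 2 of 24 genes were called with tumor and 5 of 24 without. Without overlap between the cell types, 8 of the 26 were higher and 4 lower in osteoblasts of tumor-free mice, against a background of 13.6% and 15.8%, or 29.4% in all. In tumor-bearing mice 3 were higher and 7 lower, against 12.1% and 16%, or 28.1% in all. Of the higher genes, 2 in each condition were Hoxc6 and Hoxc10; without them 6 of 24 and 1 of 24 remained. The cell type comparisons of the 2 conditions share no arrays but share the fit's estimate of the spread, so their calls are not independent.

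**Figure D3:**
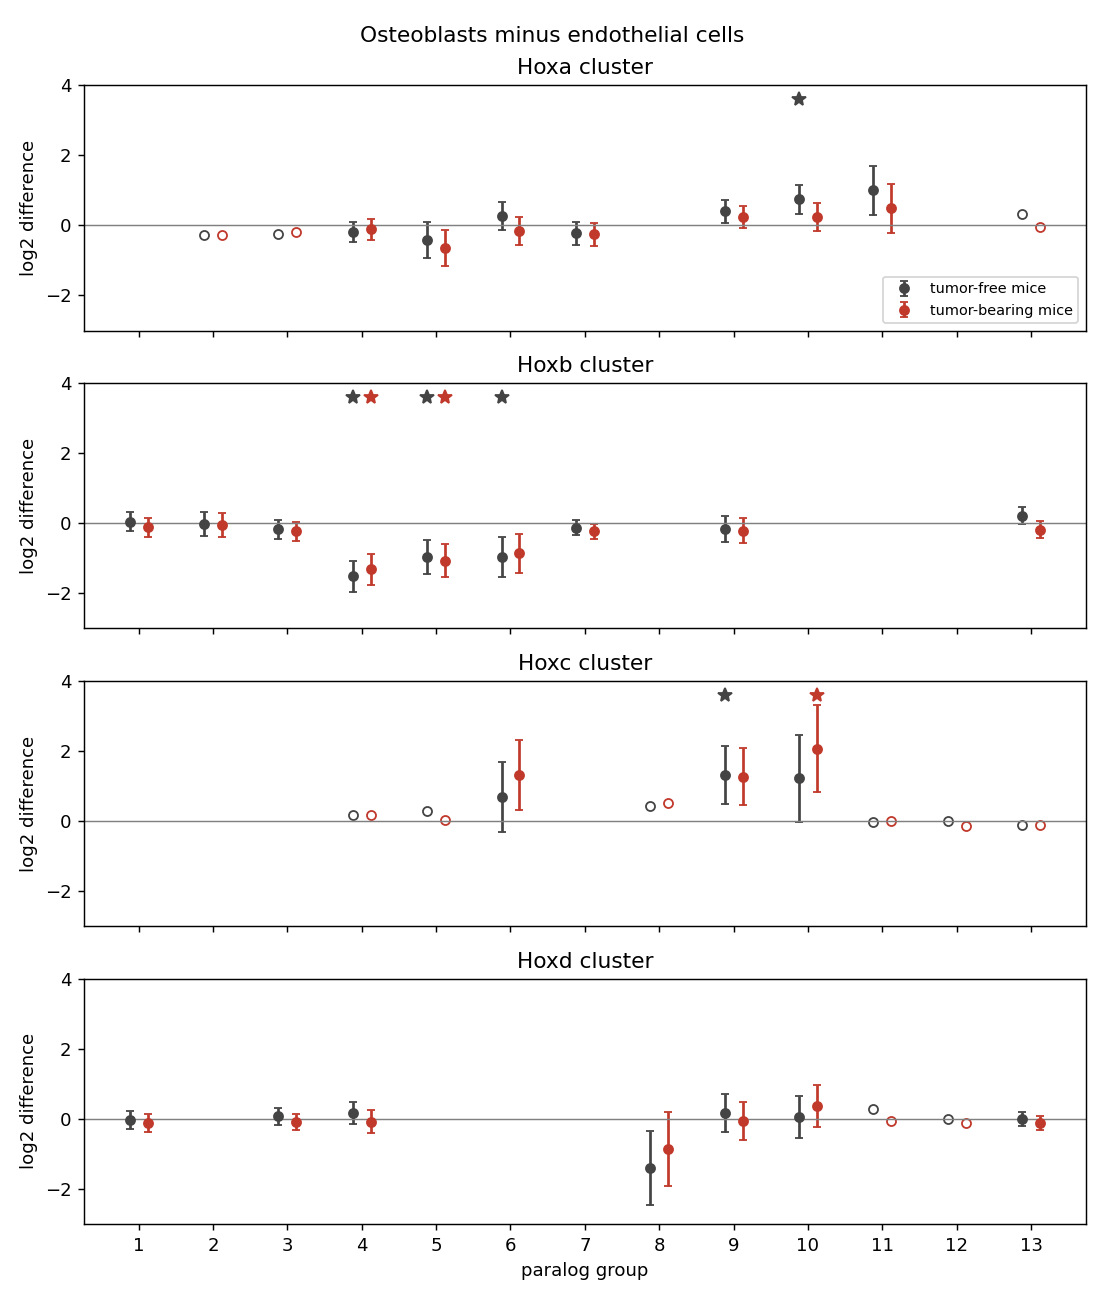
Log2 difference of osteoblasts minus endothelial cells for each Hox gene along its cluster, in tumor-free (grey) and tumor-bearing (red) mice; bars are 95% intervals from limma, open points were not tested and stars mark calls. Hoxb4 to Hoxb6 lay below 0 and Hoxc9 above it in both conditions, while Hoxa10, Hoxb6 and Hoxc9 carry a star without tumor and Hoxc10 with it; 0 of 26 differences between the conditions were called.

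By paralog group, the 3 genes of group 10, Hoxa10, Hoxc10 and Hoxd10, all had positive log2 fold changes between the cell types in both conditions. The direction of Hoxc10 was bound by the filter, and Hoxd10 had only 0.06 without tumor (limma adjusted p = 0.938). In groups 4 and 5 the Hoxa genes had the sign of the Hoxb genes, with -0.19 and -0.12 for Hoxa4 and -0.41 and -0.65 for Hoxa5 without and with tumor, and neither was called. Hoxc4 and Hoxc5, each above background in 1 of 12 arrays, were not tested. Paralog groups 1 to 3 held no call, and their 7 genes had log2 fold changes from -0.26 to 0.08 without tumor.

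Tumor growth did not shift any Hox gene past the threshold in osteoblasts. The count was 0 of 26 against a background of 0.0563% of all genes (0.0352% higher and 0.0211% lower), so few genes of any kind were called. At an unadjusted p under 0.05 there were 2 Hox genes, both lower, against 9.78% of all genes. They were Hoxa5, with a log2 fold change of -0.59 (95% interval -1.11 to -0.08, limma adjusted p = 0.439), and Hoxa6 at -0.42 (95% interval -0.82 to -0.02, limma adjusted p = 0.489).

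Negative tumor differences in osteoblasts were found for 29 of the 37 Hox genes, tested or not, with a median of -0.12. They were 10 of 10 in Hoxa (median -0.23), 7 of 9 in Hoxb, 5 of 9 in Hoxc and 7 of 9 in Hoxd. Over the 26 genes tested, 7 had a positive difference and the median was -0.11, against -0.02 over all genes tested. The share of negative differences over all genes was not counted. All Hox genes were read on the same arrays, so they are not separate replicates. Hoxa6 read 5.38, 5.58 and 5.34 with tumor and 5.76, 6.17 and 5.64 without, and Hoxa7 6.21, 6.20 and 6.29 against 6.62, 6.30 and 6.63. In both genes every tumor-bearing array lay below every tumor-free array. The same held for Hoxa11, Hoxb13, Hoxd4 and Hoxd13 among the genes tested, 6 of 26 in all against a background of 8.36%, and for 0 genes in the other direction, against 6.18%. The sizes ran from -0.12 in Hoxd13 to -0.42 in Hoxa6. The neutrophil marker medians of osteoblast arrays ran from 5.85 to 7.38 with tumor and from 6.65 to 8.60 without. Of the 7 markers tested, 1 had a positive difference (median -1.03, 0 called). Progenitor markers had 2 of 10 positive (median -0.27, 0 called) and macrophage markers 4 of 8 (median 0.02, 0 called). The erythroid medians did not overlap, with 6.25 to 6.60 with tumor and 6.79 to 7.20 without, and the 6 markers tested all had negative differences (median -0.57, 0 called). The B cell medians did not overlap either, with 5.67 to 6.00 and 6.10 to 6.59, and 5 of 6 markers tested had negative differences (median -0.53, 0 called). In endothelial arrays the erythroid medians were apart too, with 5.95 to 6.41 with tumor and 6.48 to 6.68 without. There 1 of the 6 erythroid markers tested had a positive difference (median -0.24, 0 called). The endothelial B cell medians overlapped, with 5.94 to 6.09 and 5.80 to 6.03. The part of blood cells in the Hox differences was not tested.

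Positive differences in osteoblasts did not pass the test. Hoxc10 had a log2 fold change of 1.07 (95% interval -0.16 to 2.31, limma adjusted p = 0.588), which became 0.21 (adjusted p = 0.783) without replicate 2 of the tumor-bearing group. Hoxd8 had 0.83 (95% interval -0.22 to 1.88, limma adjusted p = 0.615). Hoxd10 had 0.50 (95% interval -0.11 to 1.10, not called). Hoxc6 had 0.49 (limma adjusted p = 0.756), and -0.17 (adjusted p = 0.854) without replicate 1. Hoxb4 had -0.01 (95% interval -0.46 to 0.44).

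In endothelial cells 0 of 26 Hox genes were called, against 0.0141% of all genes, and 0 had an unadjusted p under 0.05, against 4.59% of all genes. Hoxa10 had the largest positive log2 fold change, 0.34 (95% interval -0.06 to 0.75, limma adjusted p = 0.9999), and its 3 tumor-bearing arrays lay above the 3 tumor-free ones. Hoxd10 was apart the same way, with 0.18. These were 2 of 26 higher genes without overlap against a background of 5.63%, and 0 lower against 4.87%. Hoxb4 and Hoxb5 had -0.22 (95% interval -0.67 to 0.24) and -0.17 (95% interval -0.65 to 0.30). Hoxa5 had -0.36 (95% interval -0.87 to 0.15) and Hoxa7 -0.25 (95% interval -0.58 to 0.07), the direction they had in osteoblasts. Of the 10 Hoxa genes, 5 had positive and 5 negative differences in endothelial cells.

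The tumor effect did not differ between the cell types for any Hox gene by the test of the difference itself, with 0 of 26 called against 0.0281% of all genes. The 1 gene with an unadjusted p under 0.05, against 6.47% of all genes, was Hoxb13. Its effect was -0.23 in osteoblasts and 0.17 in endothelial cells, a difference of -0.40 (95% interval -0.75 to -0.05, limma adjusted p = 0.716). The precision differed widely between genes. In osteoblasts the 95% interval of the tumor difference spanned -0.32 to 0.08 for Hoxd13 and -0.16 to 2.31 for Hoxc10.

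**Figure D4:**
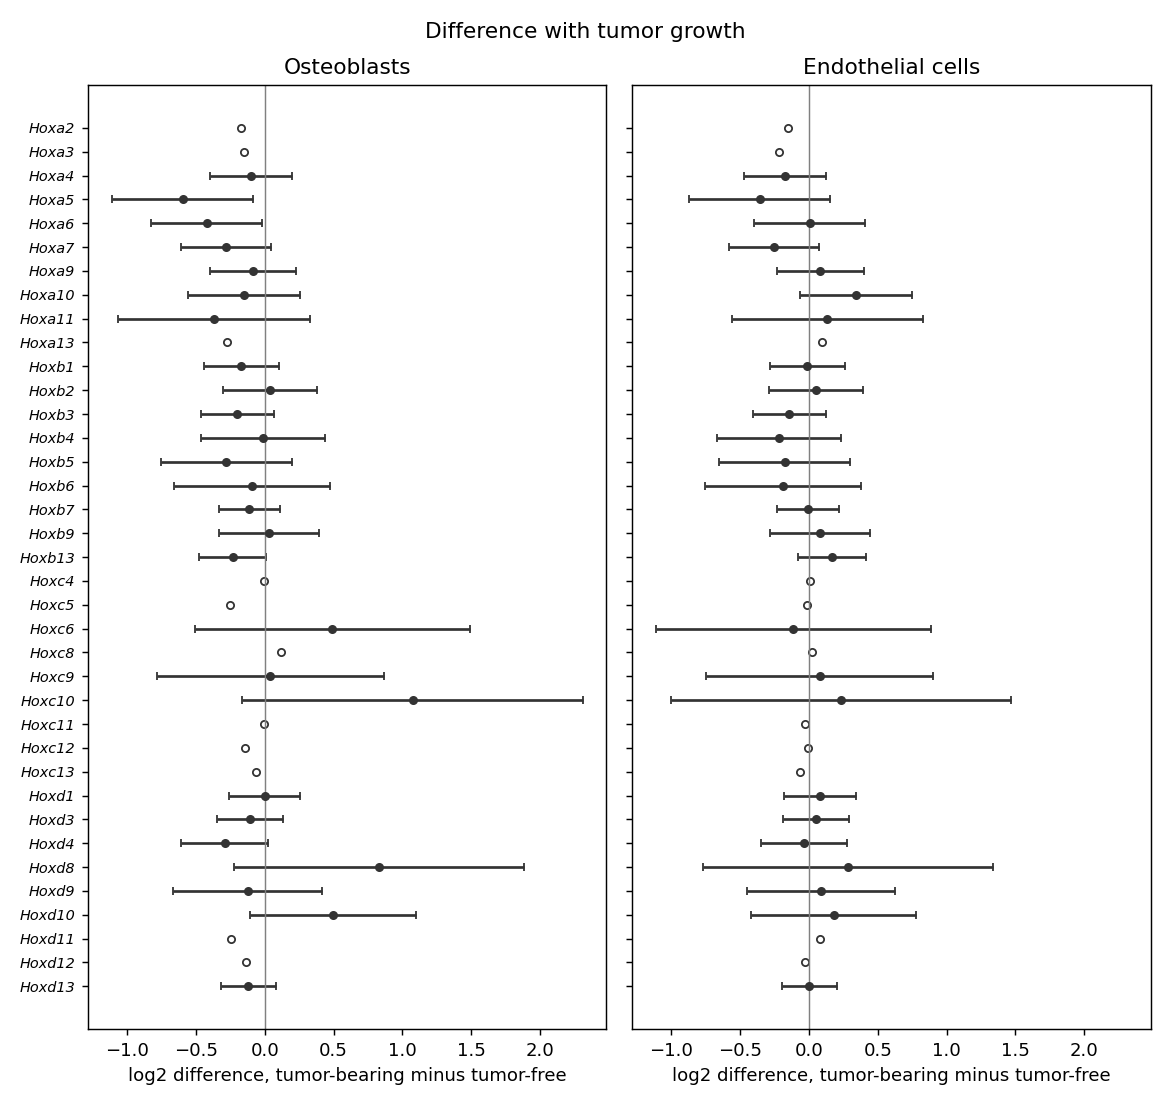
Log2 difference of tumor-bearing minus tumor-free mice for each Hox gene in osteoblasts (left) and endothelial cells (right); bars are 95% intervals from limma and open points were not tested. All 10 Hoxa genes lie left of 0 in osteoblasts, and 0 genes were called in either cell type.

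Genes that work with or upstream of Hox genes were read from lists. Hox proteins bind DNA together with the TALE homeodomain proteins of the Pbx, Meis and Pknox families. Of 8 such genes tested, 1 was higher and 0 lower in osteoblasts of tumor-free mice, and 0 were higher and 1 lower with tumor. These shares were near the 12.4% and 10.6% of all genes called. Meis3 was higher without tumor (log2 fold change 0.99, limma adjusted p = 0.0119), and Pbx2 lower with tumor (-0.60, limma adjusted p = 0.0124). Meis1, a partner of Hoxa9 in blood cells, had 0.89 and 1.01 (limma adjusted p of 0.136 and 0.0985). The median over the 8 genes was 0.25 and 0.16, against -0.01 and -0.03 over all genes.

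Polycomb proteins keep Hox genes silent and trithorax proteins keep them active. Of 21 such genes tested, 0 were called without tumor and 3 with tumor, 1 higher and 2 lower in osteoblasts, against the same 12.4% and 10.6% of all genes. The methyltransferase gene Ezh2 was higher (log2 fold change 1.13, limma adjusted p = 0.0454), and the Polycomb genes Phc3 and Rnf2 were lower (-1.26 and -0.79, limma adjusted p of 0.00734 and 0.0436). Without tumor the same genes had 1.01, -0.70 and -0.54 (limma adjusted p of 0.0657, 0.101 and 0.160). The list medians were -0.18 and -0.07.

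Retinoic acid induces Hox genes in embryos, and 14 genes of its synthesis, breakdown and reception were tested, with 3 called without tumor and 1 with tumor, against 12.4% and 10.6% of all genes. The synthesis genes Aldh1a2 (log2 fold change 2.65, limma adjusted p = 0.00263) and Aldh1a1 (0.84, limma adjusted p = 0.0477) were higher in osteoblasts of tumor-free mice, and the retinal reductase gene Dhrs3 was lower (-0.83, limma adjusted p = 0.0196). With tumor, Aldh1a2 had 1.27 (limma adjusted p = 0.105) and Dhrs3 was lower again (-0.96, limma adjusted p = 0.0103). The list medians were 0.06 and -0.01.

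Regulators of limb patterning outside the Hox clusters differed in 1 direction only where called, with 9 of 27 higher and 0 lower in osteoblasts without tumor, and 6 higher and 0 lower with tumor. Of all genes, 5.38% were higher and 7% lower without tumor, and 4.89% and 5.68% with tumor. Dlx5 is also among the osteoblast markers. Prrx1, a limb mesenchyme factor, was higher by 3.16 and 2.98 (limma adjusted p of 0.000252 and 0.000416), and Shox2, which patterns the upper limb segment, by 2.04 and 1.16 (limma adjusted p of 0.000154 and 0.00651). Dlx5 was higher by 2.51 and 2.55, and Twist1 by 2.10 with tumor; Gli3 also passed without tumor (limma adjusted p = 0.00113). The list medians were 0.20 and 0.04. The limb type genes did not separate the cell types. Tbx4 and Pitx1 of the hindlimb had 0.02 and 0.17 without tumor and did not pass, and Tbx5 of the forelimb was not tested, with values from 4.53 to 5.06.

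Of the genes that lie within or beside the Hox clusters, 10 were tested, and 1 was called in each condition, near the share of all genes. Evx1, next to Hoxa13, was higher in osteoblasts without tumor (log2 fold change 0.43, limma adjusted p = 0.0338), and Lnpk, near the Hoxd cluster, was higher with tumor (1.60, limma adjusted p = 0.0241). In the tumor contrasts of either cell type, 0 genes of these 5 lists were called.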

How the data were processed

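The members and gene lists were chosen with earlier results of these data known. Per the labels' protocols, total RNA of 5000 sorted cells was amplified by SPIA, labelled with biotin and hybridised to Affymetrix Mouse Gene 1.0 ST arrays. The deposited log2 values were made by the authors, with the package affy per the submitters' processing notes; no source used here gives its version, summary method or build. Their normalization was kept.

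Of 34760 probe sets, 21640 named 1 symbol, 1321 several and 11799 none; symbols were updated by Entrez number through RefSeq (GRCm38.p6), which matched 21553. One coefficient per group was fitted to 12 arrays with limma 3.58.1 (R 4.3.3, eBayes, prior degrees of freedom 2.36), for 5 contrasts: the cell types within each condition, the conditions within each cell type, and the difference of these effects. Groups came from sample titles. The steps were tested on simulated data. All Hox genes may be named; of each list, up to 4 members per contrast with the smallest p, besides Pecam1, Itgav, Sp7, Col1a1, Cdh5, Emcn, Tbx4, Tbx5 and Pitx1. Amplification from few cells can distort transcript proportions, and values near the array's floor understate fold changes. The number of arrays limits the precision. Alternatives covered normalization, the filter, probe set choice, variance estimation, array weights, the samples fitted, a replicate block, a fold minimum and single arrays left out.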

Additional observations from a re-analysis of the deposited data

How the results depend on the processing

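The count of Hox genes called between the cell types of tumor-free mice was 5. It was 2 with a log2 fold change of at least 1 required, 3 without replicate 3 of both osteoblast groups, and 1 to 6 with single arrays left out, the lowest without osteoblast replicate 2 of tumor-free mice. The count in tumor-bearing mice was 3, and 2 to 5 with single arrays left out, the highest without osteoblast replicate 2 of tumor-bearing mice. Under the other settings the counts were 4 to 6 and 2 to 4. Without Hoxc6 and Hoxc10, a setting added after the data were seen, they were 5 and 2. The counts for both tumor contrasts and their difference were 0 in every setting run, which for the difference did not include a fit of only the groups compared. Over single genes, contrasts and settings, 40 values lost and 21 gained a call, and 0 called values changed sign. The rest kept their side of the threshold. Of these, 10 were uncalled values that moved by at least the spread, and 2838 were the others. Deviations of same-numbered arrays from their group means correlated between -0.0797 and 0.0740 over 18 pairs, so replicate numbers showed no pairing in the values. Such correlations cannot tell whether osteoblast and endothelial arrays shared mice. With the replicate number as a block, 4 genes were called without tumor and 3 with tumor. Dim probe sets limit the Hoxc cluster most, where 3 of 9 genes were tested.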

Other observations

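Hoxb8, which has no probe set of its own, is named together with Hoxb7 by a single probe set that was left out of the tests. It read 5.68, 6.07 and 5.66 in osteoblasts and 6.64, 6.67 and 7.39 in endothelial cells of tumor-free mice, and 5.58, 5.85 and 6.02 against 6.87, 7.04 and 6.84 in tumor-bearing mice. All 6 endothelial arrays lay above all 6 osteoblast arrays, with a difference of means of -1.10 on the log2 scale in both conditions (means ± SD of 5.80 ± 0.23 and 6.90 ± 0.42 without tumor, n = 3). The probe set that names Hoxb7 alone differed by -0.13 and -0.23, so the share of each gene in the joint signal cannot be told apart.

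The gene of the microRNA miR-10a lies 993 bases before the Hoxb4 start site, and that of miR-10b lies in the Hoxd cluster. The mature sequences (RefSeq, GRCm38.p6) share the seed in capitals, bases 2 to 8, and differ by U12A, counted from the 5′ end of miR-10a.
mmu-miR-10a-5p: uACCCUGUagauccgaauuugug
mmu-miR-10b-5p: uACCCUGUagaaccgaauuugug
The hairpin probe sets read 2.73 to 3.72 for Mir10a and 2.85 to 3.15 for Mir10b over the 12 arrays. Both lay below the 40th percentile of every array and were not tested.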
